A study of Mus musculus with 18 samples.

Results

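H3K36me2 windows at which H3K27me3 was not also called changed are described here, in epidermis that expresses the mutant histone H3K36M and in control epidermis. They are 401 bp windows on chromosomes 1 to 19 that the authors list for H3K36me2 and whose coordinates do not recur in their list for H3K27me3. The list for H3K36me2 holds windows with a nominal p under 0.05, and the list for H3K27me3 holds windows with an FDR under 0.05. Of the 730 windows listed for H3K36me2, 516 (70.7%) have no H3K27me3 call, and the other 214 have one. A missing call means only that no H3K27me3 change passed the threshold at that window, not that the window lacks H3K27me3.

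The mutant animals were Krt14-Cre(+) mice with the LSL-H3K36M construct, in which Cre turns on an H3 histone that carries methionine in place of lysine 36. The WT animals were Krt14-Cre(-) mice with the same construct, so the silent transgene was shared by both genotypes. CUT&RUN, an antibody-guided nuclease assay that releases DNA beside a chromatin mark, was run on single-cell suspensions of epidermis with antibodies to H3K36me2 and H3K27me3 and with IgG. Each antibody was used in 3 mutant and 3 WT animals, which gave 18 libraries from 6 animals, and the IgG libraries were not analysed here. Krt14-Cre acts in basal keratinocytes and their progeny, whereas melanocytes and immune cells of the same suspension are not its targets. The labels used here state neither age nor sex of the animals. In such mixed suspensions, fewer cells that carry the mark and less mark per cell cannot be told apart. No RNA was measured, so the labelled tissue could not be checked against the expression of its markers.

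H3K36me2 is written mainly by the NSD family and ASH1L, covers broad stretches between genes and within gene bodies, and limits spread of the Polycomb mark H3K27me3, which PRC2 writes through EZH1 or EZH2. H3K36M blocks several H3K36 methyltransferases. In skin, the balance of these marks is known for its part in keeping keratinocyte fate apart from that of glands and other appendages.

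The windows without an H3K27me3 call mostly had less H3K36me2 in the mutant: 381 were lower and 135 were higher in the mutant. The windows were selected on the nominal p of this same contrast and on the missing H3K27me3 call, so these directions and sizes are a description and carry no test. The background is 4.04% of the 18072 windows tested for H3K36me2 (2.81% lower and 1.23% higher), while 903.6 windows would pass a nominal p of 0.05 by chance alone. In the authors' deposited DiffBind table no window (0%) passed an FDR of 0.05. Of the windows without an H3K27me3 call, 83 had a nominal p under 0.01. H3K27me3 was called at 23.7% of all windows tested and at 29.3% of the windows listed for H3K36me2.

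Only a few windows lie at promoters, and their sequences are shown to give the start sites a concrete form. Promoters of 300 bp, from 250 bases before to 50 after the start site, came from RefSeq (GRCm38.p6). The promoter table covers 18 of the 19 autosomes and 16457 protein-coding genes, so windows at other promoters could not be counted. Of the 516 windows, 14 overlapped a promoter of the table, and 7 of these 14 overlapped the promoter of a protein-coding gene. These 7 windows touched promoters of 8 protein-coding genes. The first sequences belong to genes with lower H3K36me2 and the last to a gene with higher H3K36me2 in the mutant. Capitals mark CpG dinucleotides, and each sequence reads 5′ to 3′ on the strand of its gene.
Cngb1, chr8:95306536-95306835, minus strand: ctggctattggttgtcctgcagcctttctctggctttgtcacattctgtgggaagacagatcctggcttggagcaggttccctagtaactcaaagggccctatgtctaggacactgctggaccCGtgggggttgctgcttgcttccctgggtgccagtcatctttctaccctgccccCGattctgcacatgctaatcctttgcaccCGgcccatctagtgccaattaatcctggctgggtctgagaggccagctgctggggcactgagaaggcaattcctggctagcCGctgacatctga
Rdh1, chr10:127759513-127759812, plus strand: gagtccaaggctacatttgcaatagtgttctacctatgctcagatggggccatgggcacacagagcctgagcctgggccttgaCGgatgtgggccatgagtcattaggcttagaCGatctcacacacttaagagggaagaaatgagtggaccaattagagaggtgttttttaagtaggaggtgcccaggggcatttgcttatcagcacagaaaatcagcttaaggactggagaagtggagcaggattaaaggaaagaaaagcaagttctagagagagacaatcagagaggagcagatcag
Rdh12, chr12:79208663-79208962, plus strand: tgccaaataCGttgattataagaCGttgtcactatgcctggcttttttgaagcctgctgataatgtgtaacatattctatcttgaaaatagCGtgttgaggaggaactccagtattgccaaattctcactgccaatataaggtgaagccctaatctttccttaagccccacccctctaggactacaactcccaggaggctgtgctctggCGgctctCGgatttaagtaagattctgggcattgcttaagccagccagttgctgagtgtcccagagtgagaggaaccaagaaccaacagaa
Mphosph9, chr5:124327923-124328222, minus strand: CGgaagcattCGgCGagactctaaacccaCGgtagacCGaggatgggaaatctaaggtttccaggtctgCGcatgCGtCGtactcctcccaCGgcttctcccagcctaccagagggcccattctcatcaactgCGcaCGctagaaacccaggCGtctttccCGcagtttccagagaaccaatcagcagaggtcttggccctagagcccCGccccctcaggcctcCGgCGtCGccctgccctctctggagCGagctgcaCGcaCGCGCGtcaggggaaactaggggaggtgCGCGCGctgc
Abr, chr11:76571335-76571634, minus strand: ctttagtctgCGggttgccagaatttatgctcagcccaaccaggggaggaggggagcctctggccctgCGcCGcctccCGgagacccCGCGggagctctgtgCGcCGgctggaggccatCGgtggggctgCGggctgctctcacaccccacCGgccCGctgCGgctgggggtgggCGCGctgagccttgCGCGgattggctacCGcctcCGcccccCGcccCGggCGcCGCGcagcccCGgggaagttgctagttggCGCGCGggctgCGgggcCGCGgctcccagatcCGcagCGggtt

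The promoters with lower H3K36me2 included CpG-poor and CpG-rich sequences. Over 20085 promoters of protein-coding genes in the table, the median was 14 CpG per promoter (quartiles 4 and 25) with a GC content of 57% (quartiles 48.7% and 65%). Cngb1, which encodes a subunit of the cyclic nucleotide-gated channel of rod photoreceptors, had 4 CpG, and its whole promoter lay in a window with means of 2.60 mutant and 9.77 WT normalised reads. Rdh1, a retinol dehydrogenase gene, had 2 CpG, and its window had means of 8.22 mutant and 18.2 WT normalised reads. Rdh12, another retinol dehydrogenase gene, had 5 CpG, and 153 bp of its promoter lay in a window with means of 5.43 mutant and 12.8 WT normalised reads. Each of these 3 promoters had fewer CpG than the median.

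Mphosph9, a centrosomal protein gene, shares its start region with the divergent gene 2810006K23Rik, and its promoter held 25 CpG. The window there had means of 3.94 mutant and 10.5 WT normalised reads. Abr, which encodes a regulator of small GTPases, had 33 CpG and a GC content of 74.7%. Its window had means of 5.76 mutant and 1.70 WT normalised reads. The window at Golga3, a Golgi protein gene, had 3.70 mutant and 10.2 WT normalised reads with 17 CpG in the promoter, and the window at Gdf10, a BMP family ligand gene, had 2.004 mutant and 1 WT normalised reads with 42 CpG. The WT value at Gdf10 is the floor of the table, so the size of its difference depends on that floor.

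Short motifs were searched on both strands of these promoters as a description. TATAAA, the core of a TATA box, was in 12.7% of the 20085 promoters and in none of the 8 promoters of protein-coding genes touched by a window. GGGCGG, a GC box, was in 47.0% of all promoters and occurred at Mphosph9, 2810006K23Rik, Golga3, Gdf10 and Abr, but not at Cngb1, Rdh1 or Rdh12. CCAAT was in 38.1% of all promoters and occurred at Cngb1, Rdh1, Rdh12, Abr, Golga3, Mphosph9 and 2810006K23Rik, but not at Gdf10. GGGCGG itself holds a CpG, and it can share bases with CCAAT read on the other strand. A motif count describes the letters of these promoters and says nothing of a bound factor.

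Levels were low on both sides of the comparison. Each value is the authors' genotype mean (3 libraries per genotype), converted from the authors' log2 means to normalised reads per 401 bp window, and values of single animals are not in the tables used, so no spread between animals can be given beside the means. Lower windows had a median of 4.04 reads in the mutant (quartiles 3.19 and 5.19) and 11.1 in WT (quartiles 9.38 and 13.5). Higher windows had a median of 8.99 reads in the mutant (quartiles 7.29 and 10.5) and 2.99 in WT (quartiles 2.05 and 3.78). The log2 difference, mutant minus WT, ran from -3.90 to -0.98 in the lower windows with a median of -1.43, and from 1.003 to 2.68 in the higher windows with a median of 1.61. In 7 windows, 2 lower and 5 higher, a genotype mean stood at the floor of 1 read.

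**Figure D1:**
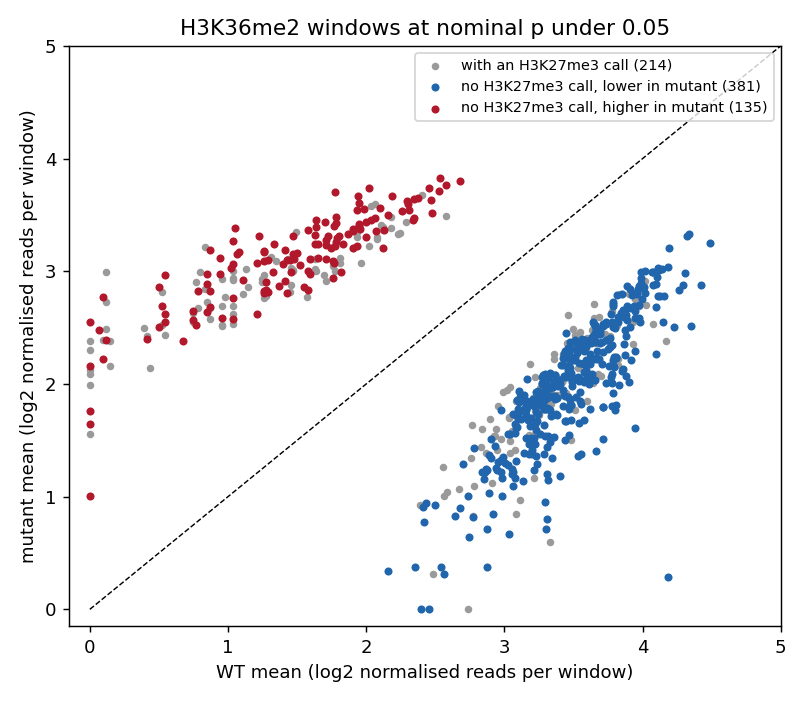
Genotype means of H3K36me2 (log2 normalised reads per 401 bp window) for the 730 listed windows, mutant on the vertical and WT on the horizontal axis; the dashed line marks equal means. The 381 lower windows without an H3K27me3 call have WT means up to 22.4 reads, the 135 higher ones have mutant means up to 14.2 reads, and the 214 windows with a call (grey) fall in the same 2 clouds.

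The windows with an H3K27me3 call also held both directions of H3K36me2, and their levels were not tested against the others. Of those 214 windows, 126 were lower and 88 higher in H3K36me2. Their lower windows had medians of 4.04 mutant and 10.5 WT reads, and their higher windows 7.60 mutant and 2.38 WT reads. H3K27me3 at the same windows was higher in the mutant at 88 of the 126 lower windows, and lower in the mutant at 77 of the 88 higher windows.

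At the threshold, the windows differ little in p. Just inside the nominal p of 0.05 were Pip4k2a, a phosphoinositide kinase gene (6.45 mutant and 13.8 WT reads), Mbtps1, a protease gene that activates SREBP (8.35 mutant and 2.64 WT reads), and Rmdn2, a microtubule-associated protein gene (1.93 mutant and 5.39 WT reads). The windows left out because of an H3K27me3 FDR close to 0.05 included 1 in Adgrv1 on chromosome 13 from 81321760 to 81322160 with 6.35 mutant and 15.4 WT reads for H3K36me2. Its H3K27me3 FDR was 0.0491 in the authors' deposited table. Adgrv1 also holds 3 windows without an H3K27me3 call, so the split by H3K27me3 passes through single genes.

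The decreases lay less often in protein-coding gene bodies than the increases did. Of the lower windows, 148 of 381 (38.8%, 95% interval 33.9 to 43.9) overlapped a protein-coding gene body, against 94 of 135 higher windows (69.6%, 61.1 to 77.2). This difference had an odds ratio of 0.28 and an adjusted p of 2.64e-09 (2-sided Fisher's exact test over windows, Benjamini-Hochberg over 4 location tests). Ends of protein-coding genes lay within 5 kb of 66 lower windows (17.3%, 13.7 to 21.5) and of 39 higher windows (28.9%, 21.4 to 37.3; odds ratio 0.52, adjusted p = 0.00797, Fisher's exact test). With all RefSeq genes in place of protein-coding ones, 51.2% of lower and 76.3% of higher windows overlapped a gene body (adjusted p = 1.25e-06, Fisher's exact test). The call at gene ends was lost with all RefSeq genes (32.0% and 39.3%, adjusted p = 0.185), with ends within 1 kb (5.51% and 9.63%, adjusted p = 0.141) and at a nominal p under 0.01 (8.11% and 33.3%, adjusted p = 0.0720), each by Fisher's exact test. Windows with an H3K27me3 call showed the same order, which was not tested. Of these, 37 of 126 lower (29.4%) and 50 of 88 higher windows (56.8%) overlapped a gene body. Near gene ends lay 24.6% of lower and 48.9% of higher windows with a call. Neither split is thus particular to windows without a call. Windows are not replicates, so the p-values and intervals of these location tests, here and below, cover counting error over windows only. They do not measure the spread between animals, and the directions come from the contrast that selected the windows.

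Distances to genes showed the same split. More than 50 kb from any protein-coding gene lay 92 of the 381 lower windows (24.1%) and 10 of the 135 higher windows (7.41%). Outside gene bodies, the median distance to the nearest gene was 35428 bp for 233 lower windows and 22082 bp for 41 higher windows. Host genes had a median length of 118405 bp for the 148 lower windows in gene bodies and 68254 bp for the 94 higher windows. These distances and lengths were not tested.

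Windows without an H3K27me3 call were less often near gene ends than windows with one. Within 5 kb of a gene end lay 105 of 516 windows without a call (20.3%, 17.0 to 24.1) and 74 of 214 with a call (34.6%, 28.2 to 41.4), with an odds ratio of 0.48 (Fisher's exact test, adjusted p = 1.38e-04). With ends within 1 kb the shares were 6.59% and 10.7%, and the difference was not called (adjusted p = 0.137). Within lower windows alone the shares were 17.3% and 24.6% (adjusted p = 0.0888), and within higher windows alone 28.9% and 48.9% (adjusted p = 0.00584). Gene bodies were overlapped by 242 of 516 windows without a call (46.9%, 42.5 to 51.3) and by 87 of 214 with a call (40.7%, 34.0 to 47.6), which was not called (odds ratio 1.29, Fisher's exact test, adjusted p = 0.141). For scale, 54.3% of 12908 autosomal H3K36me2 islands and 46.8% of 4257 autosomal windows called for H3K27me3 overlapped a gene body, and 23.0% of those islands and 33.9% of those H3K27me3 windows lay within 5 kb of a gene end. The share near gene ends of windows with a call thus lay near that of all H3K27me3 calls. Islands are wider than the 401 bp windows, with medians of 5400 bp if called lower and 3800 bp if called higher. They were scored over their whole width, so their shares are not a like comparison.

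**Figure D2:**
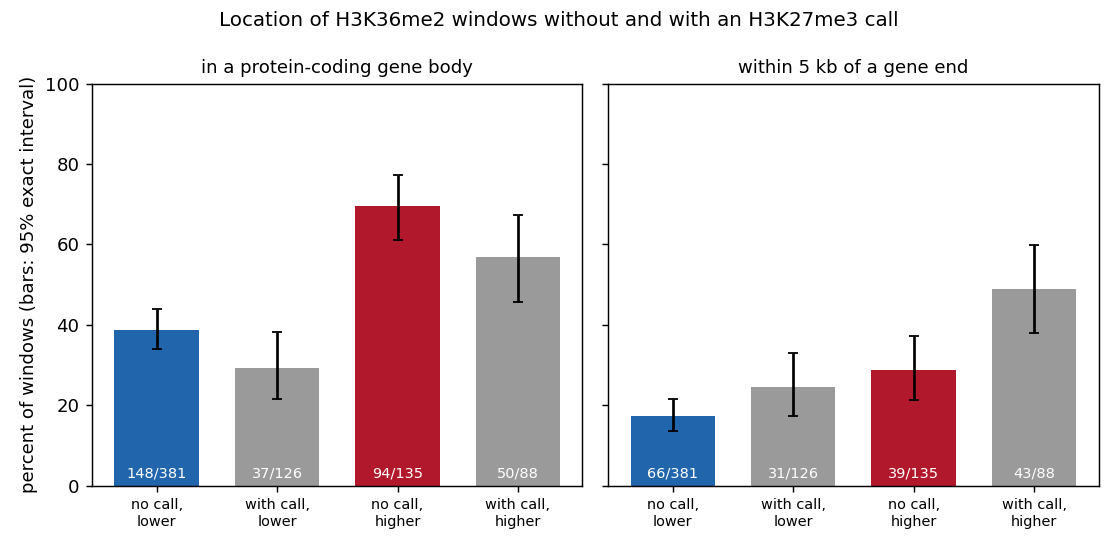
Percent of H3K36me2 windows that overlap a protein-coding gene body (left) or lie within 5 kb of a gene end (right), for windows without and with an H3K27me3 call, lower and higher in the mutant; error bars are 95% exact binomial intervals and the numbers are windows. Gene bodies hold 38.8% of lower and 69.6% of higher windows without a call, and 29.4% of lower and 56.8% of higher windows with one. Gene ends lie near 28.9% of higher windows without a call and 48.9% of those with one.

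The windows with the largest decreases lay mostly outside protein-coding genes, at distances from 3512 to 1123204 bp. The window on chromosome 8 from 7493631 to 7494031, with Efnb2 as its nearest gene at 1123204 bp, had means of 1.22 mutant and 18.2 WT reads and p = 7.71e-06 in the authors' deposited table. Its FDR of 0.139 in the authors' deposited table was the smallest, and the next was 0.9996, among the 516 windows. Next came a window on chromosome 6 from 67094854 to 67095254 with 1.64 mutant and 9.87 WT reads, 57447 bp from the DNA damage response gene Gadd45a. A window on chromosome 9 from 76691050 to 76691450, 123935 bp from Fam83b, had 1.75 mutant and 9.89 WT reads. Of the 10 windows with the largest decrease, only those in Ntng1 and Ldlrad3 overlapped a gene, beside 38.8% of all 381 lower windows.

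Among the decreases in or near genes, Ntng1, which encodes the axon guidance protein netrin-G1, had 1.30 mutant and 7.35 WT reads on chromosome 3 from 109866161 to 109866561. Ldlrad3, a low-density lipoprotein receptor family gene, had 2.28 mutant and 10.6 WT reads on chromosome 2 from 101986377 to 101986777. Near 2310050C09Rik, in the region of the epidermal differentiation complex on chromosome 3, a window from 92873717 to 92874117 had 3.05 mutant and 15.4 WT reads. Windows with larger decreases also lay 6366 bp from Sptlc2, a serine palmitoyltransferase gene of sphingolipid synthesis (1.59 mutant and 8.17 WT reads), 9671 bp from Lmntd1 (1.24 mutant and 5.90 WT reads), 15476 bp from Mrgprb3, a Mas-related receptor gene (2.64 mutant and 12.7 WT reads) and 192285 bp from Efna5, an ephrin ligand gene (1.94 mutant and 9.81 WT reads).

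The smallest p-values among lower windows were also found outside genes. A window 117209 bp from Cdkn2b, a cyclin-dependent kinase inhibitor gene, on chromosome 4 from 89428241 to 89428641, had 2.86 mutant and 13.1 WT reads (p = 7.07e-04 in the authors' deposited table). A window 469402 bp from Slc4a3, an anion exchanger gene, had 3.41 mutant and 13.9 WT reads. A window 14263 bp from Prss2, a trypsin gene, had 5.72 mutant and 20.4 WT reads. A window 19779 bp from Me1, the cytosolic malic enzyme gene, had 4.80 mutant and 17.2 WT reads. None of these windows overlapped a protein-coding gene, beside 38.8% of all 381 lower windows. With so few windows this was not tested.

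The windows with the largest increases had low WT means and lay mostly within genes. A ranking by log2 difference favours a low mean on 1 side. The 10 windows with the largest decrease likewise had mutant means of 1.22 to 3.05 reads. Of the 10 windows with the largest increase among those above the floor, all except the windows near Myh7b and Fos overlapped a gene. Of all 135 higher windows, 69.6% did. Myh7b, a slow myosin heavy chain gene, lay 3165 bp from a window with 6.82 mutant and 1.07 WT reads on chromosome 2 from 155607678 to 155608078. A window 35378 bp from Fos, the AP-1 subunit gene, had 7.81 mutant and 1.46 WT reads. Inside genes, the mutant and WT means were 5.56 and 1.05 reads at Tmem150c, 7.28 and 1.41 at Rarb, the retinoic acid receptor beta gene, and 10.4 and 2.07 at Mrpl58, a mitochondrial ribosome gene.

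Further increases were found at genes of several kinds. Mutant and WT means were 9.11 and 1.82 reads at Rcsd1, an actin capping protein regulator gene (p = 0.00348 in the authors' deposited table). They were 5.26 and 1.09 reads at Tlr5, the flagellin receptor gene, 9.67 and 2.05 at Cep68, a centrosome gene, and 6.45 and 1.43 at Btrc, which encodes a ubiquitin ligase adaptor for beta-catenin. Ryr1, the calcium release channel gene of skeletal muscle, had the smallest p of the increases above the floor, 0.00334 in the authors' deposited table, with 8.70 mutant and 1.92 WT reads on chromosome 7 from 29018905 to 29019305. Ano1, a calcium-activated chloride channel gene of secretory epithelia, had 9.92 mutant and 2.33 WT reads on chromosome 7 from 144731933 to 144732333. A window 5665 bp from Cmtm2b had 10.3 mutant and 2.99 WT reads. None of these windows had a WT mean above 2.99 reads, so each difference rests on few WT reads.

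Few windows of the set lay within 50 kb of another. At a gap of at most 50 kb, the 516 windows formed 502 clusters, of which 488 held 1 window and 14 held 2. Of those 14, 11 held only lower windows, 0 only higher windows and 3 both directions. Only 18072 windows of 401 bp were tested, and the positions of the unlisted ones are not known. How close the tested windows lie to each other could not be counted. The clusters therefore cannot tell single sites from changed stretches. Chromosome counts ran from 16 on chromosomes 10 and 16 to 47 on chromosome 2. The lower share ran from 63.0% on chromosome 14 to 87.0% on chromosome 18, so lower windows were the majority on each of the 19 chromosomes.

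Within 5 kb of 282 windows lay 294 protein-coding genes, 186 with a lower window, 111 with a higher window and 3 with both. Only 10 genes had more than 1 window. Adgrv1, a giant adhesion receptor gene of 538324 bp, had 3 lower windows, with means of 4.03 mutant and 13.3 WT reads, 6.96 mutant and 15.5 WT reads, and 4.04 mutant and 11.2 WT reads. Dlg2, which encodes a synaptic scaffold protein, Macrod2, an ADP-ribosylhydrolase gene, Col28a1, a collagen gene, Prkce, the protein kinase C epsilon gene, Psd3, an Arf exchange factor gene, and Rabgap1l, a Rab GTPase activator gene, had 2 lower windows each. All of these genes are at least 196610 bp long.

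In 3 genes the direction was mixed. Slit3, which encodes a secreted guidance ligand of ROBO receptors, held a lower window with 5.21 mutant and 12.6 WT reads and a higher window with 10.98 mutant and 4.10 WT reads, both within a span of 25775 bp. Arhgap26, a GTPase activator gene, held a lower window with 3.42 mutant and 10.02 WT reads and a higher one with 5.20 mutant and 1.60 WT reads. Otp, a homeobox gene of the hypothalamus, had a lower window in its body with 1.30 mutant and 5.10 WT reads, and 1669 bp beyond the gene a higher window with 3.38 mutant reads and a WT mean at the floor of 1 read.

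Genes on lists for skin, signalling, development, chromatin, long genes and other cell types had mostly 0 or 1 window each. Of 517 autosomal genes on 16 lists, 14 had a lower window within 5 kb (2.71%) and 2 a higher one (0.387%), against 0.900% and 0.537% of 20665 autosomal protein-coding genes. The share of all genes is not matched for gene length, here and for each list below. The list of very long genes alone gave 5 of the 14. The lists were also chosen with earlier results of these data known, so these shares are a description. Among 23 basal and follicle stem cell genes only Nfatc1, a regulator of follicle stem cell quiescence, had a window, with 4.37 mutant and 11.03 WT reads. Among 38 epidermal differentiation genes only Grhl3, a transcription factor gene of barrier formation, had one, and it was higher, with 9.25 mutant and 3.75 WT reads. Among 30 junction and basement membrane genes Dst, which encodes the hemidesmosome protein BPAG1, had a window with 1.76 mutant and 6.82 WT reads. The keratinocyte genes Krt5, Krt14, Krt1, Krt10 and Trp63 had no window within 5 kb, which says little for so few genes at the shares of all genes.

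Signalling genes were hit singly. Of 47 autosomal WNT genes, Wnt11, a ligand of noncanonical WNT signalling, had a higher window with 10.9 mutant and 3.11 WT reads on chromosome 7 from 98841949 to 98842349. Wnt3a, a ligand that stabilises beta-catenin, had a lower window with 3.52 mutant and 8.91 WT reads. Within 5 kb of Rnf43, which encodes a ligase that removes WNT receptors, a lower window had 7.96 mutant and 16.9 WT reads. That window lies in the body of another gene, Hsf5, and not in Rnf43. Of 41 FGF, EGF and Notch signalling genes, Maml2, a Notch coactivator gene, had a lower window with 6.92 mutant and 15.2 WT reads. No window lay within 5 kb of any of the 16 Hedgehog, 40 BMP and TGF-beta, 26 autosomal gland and sebaceous or 37 squamous carcinoma genes on the lists. Of all autosomal protein-coding genes, 0.900% had a lower and 0.537% a higher window. At such shares a list of this size can easily hold 0, so these lists cannot be called spared. Gdf10, the BMP family ligand gene with a higher window at its promoter, is not on the BMP and TGF-beta list.

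The remaining lists held chromatin, developmental and long genes. Of 36 autosomal H3K36, Polycomb and DNA methylation enzymes, Ezh2, the PRC2 methyltransferase gene, had a lower window with 6.49 mutant and 15.7 WT reads on chromosome 6 from 47584882 to 47585282. Of 89 autosomal developmental transcription factor genes, Meis2, a homeobox gene, had a lower window with 4.02 mutant and 9.67 WT reads. Of 58 autosomal very long neuronal and adhesion genes, 5 had a lower window (8.62%) and 0 a higher one. Ptprn2, a secretory granule protein gene, had 7.36 mutant and 19.6 WT reads, and the 2 windows in Dlg2 had 5.84 mutant and 15.8 WT reads and 2.20 mutant and 8.80 WT reads. Lower windows also lay at Macrod2, Tenm2 and, within 5 kb of its end, Fhit, a diadenosine triphosphate hydrolase gene.

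Markers of other cell types held windows only in the fibroblast and endothelial list, and there at 2 endothelial genes. The fibroblast genes of that list, such as Col1a1 and Pdgfra, had no window within 5 kb. Nor did the endothelial genes Cdh5, Kdr and Tek of that list. Of its 13 markers, 2 had a lower window (15.4%, against 0.900% of all protein-coding genes): Vwf, the von Willebrand factor gene, with 6.89 mutant and 17.3 WT reads, and Pecam1, the CD31 gene, with 5.36 mutant and 14.7 WT reads. The 7 melanocyte, 4 Merkel cell and 13 autosomal immune markers had 0 windows within 5 kb. With so few markers and a share of 0.900% over all genes, a count of 0 says little about these cell types. Whether the share of these cells differed between genotypes was not tested.

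SICER2 islands, broad enriched stretches in which the authors compared H3K36me2 reads pooled by genotype, held 181 of the 516 windows (35.1%, 31.0 to 39.4) and 30 of the 214 windows with an H3K27me3 call (14.02%, 9.66 to 19.4). By an FDR under 0.05 as the authors' deposited table gives it, 58.1% of all islands are called lower and 17.3% higher. Of 167 lower windows in islands, 165 lay in islands called lower, 0 in islands called higher and 2 in uncalled islands. Of 14 higher windows in islands, 11 lay in islands called higher, 1 in an island called lower and 2 in uncalled islands. Islands and windows come from the same H3K36me2 experiment, so their direction is no separate support. Relative to the median log2 fold of all islands, -0.30, an exact binomial test of island reads put 87 lower windows in islands called lower and 12 higher windows in islands called higher. Under that scaling 13.4% of all islands are called lower and 27.4% higher, so the balance over all islands is reversed.

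Most windows of either direction lay outside islands, and increases more so. Outside islands were 214 of 381 lower windows and 121 of 135 higher windows. The nearest island of those 214 lower windows was called lower at 145, higher at 36 and neither way at 33. The nearest island of those 121 higher windows was called lower at 60, higher at 30 and neither way at 31. Over all islands, 58.1% are called lower and 17.3% higher. Only 28 of those 214 lower and 8 of those 121 higher windows lay within 5 kb of an island. The nearest island was thus mostly not an adjoining one. Lower windows outside gene bodies were in an island in 114 of 233 cases (48.9%, 42.3 to 55.5), and those in gene bodies in 53 of 148 (35.8%, 28.1 to 44.1).

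**Figure D3:**
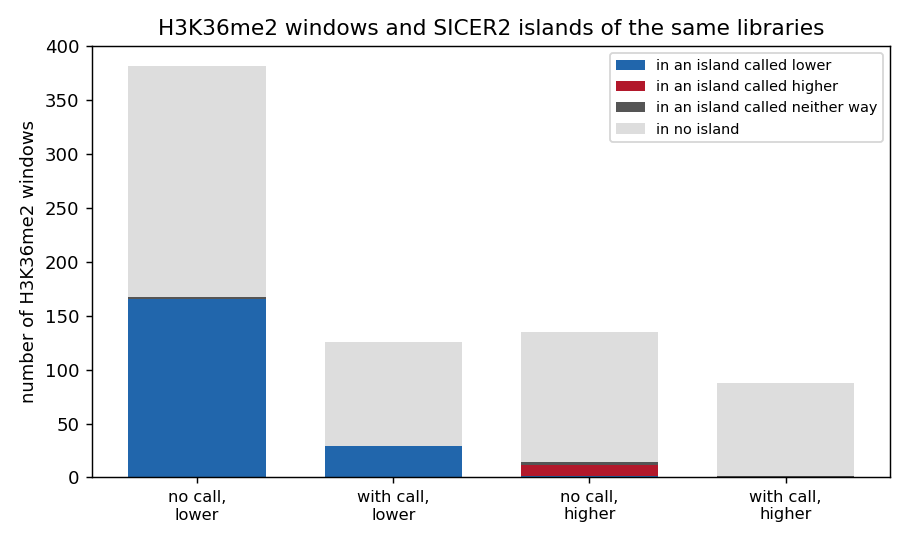
Number of H3K36me2 windows in SICER2 islands called lower, called higher or called neither way at FDR 0.05 and in no island, for windows without and with an H3K27me3 call. Of the 381 lower windows without a call 165 lie in islands called lower, and of the 135 higher ones 11 lie in islands called higher.

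Islands called lower that held a window were wider than all islands called lower and had a lower fold, which was not tested. Of these islands, 1 held a higher window (Efcab1, described below). A wider island has more room to hold a window, and the lower windows were selected for fewer mutant reads in the same libraries. Neither difference is thus a finding apart from how these islands were picked. The 166 islands called lower that held a window had a median width of 6800 bp and a median fold of 0.646 in the authors' deposited table, against 5400 bp and 0.709 for all 7791 islands called lower. The 166 islands held medians of 207.5 mutant and 258 WT reads. The island at Ptprn2 had the lowest fold among them, 0.417 in the authors' deposited table, with 108 mutant and 207 WT reads. The island at the window farthest from genes on chromosome 8, from 7493201 to 7497400, followed at a fold of 0.431, with 89 mutant reads against 165 in WT, in the authors' deposited table. Across the 181 windows in islands, the window difference and the island log2 fold had a Pearson's r of 0.76 (Spearman's coefficient 0.43), and within the 167 lower windows r was 0.30 (Spearman's coefficient 0.28). All of these points share the same libraries, so this is a description.

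The 11 islands called higher that held a higher window had folds from 1.15 to 1.61 in the authors' deposited table. Among them were folds of 1.61 at Ptpn3, a tyrosine phosphatase gene, 1.59 at Vps13d, a lipid transfer protein gene, 1.52 at Elp3, a subunit gene of Elongator, and 1.52 at Zfp532 in the authors' deposited table. Vac14, a scaffold gene for phosphoinositide synthesis, reached 1.45 in the authors' deposited table, and its window had 13.9 mutant and 6.39 WT reads. The exception was Efcab1, a ciliary calcium-binding protein gene, on chromosome 16 from 14944974 to 14945374. Its window was higher, with 9.94 mutant and 3.30 WT reads, while an island from 14941201 to 14945000, which reaches only the near edge of the window, was called lower at a fold of 0.741, with 135 mutant reads against 145 in WT, in the authors' deposited table.

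Although these windows had no H3K27me3 call of their own, some had one nearby. The nearest lay at 7449 bp, so no window had an H3K27me3 call within 5 kb. Within 50 kb, 72 of the 381 lower windows (18.9%) and 21 of the 135 higher windows (15.6%) had a window called for H3K27me3. H3K27me3 at that nearest window was higher in the mutant for 55 of the 72 lower windows (76.4%, 64.9 to 85.6) and for 6 of the 21 higher windows (28.6%, 11.3 to 52.2). Of all 4285 windows called for H3K27me3, 36.01% were higher and the others lower, from 8.54% and 15.2% of the windows tested. Within 100 kb the shares were 102 of 149 lower windows (68.5%) and 20 of 52 higher windows (38.5%), so for higher windows the share lay near that of all H3K27me3 calls. Within 50 kb, H3K27me3 was higher at the neighbour of 16 of 22 lower windows in gene bodies and 39 of 50 outside them, and of 3 of 13 higher windows in gene bodies and 3 of 8 outside them. Of windows with an H3K27me3 call of their own, 41 of 126 lower (32.5%) and 29 of 88 higher ones (33.0%) had another within 50 kb. H3K27me3 at that neighbour was higher for 27 of these 41 (65.9%) and for 3 of these 29 (10.3%). For higher windows without a call, the interval within 50 kb (11.3 to 52.2) holds the 36.01% of all H3K27me3 calls. Their neighbours thus did not stand apart from H3K27me3 calls in general. The raised share at neighbours of lower windows was also seen at windows with a call, so it is not particular to windows without one. These counts describe neighbours and were not tested.

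Single neighbourhoods show both arrangements, and these examples were chosen after their values were seen. Near Lifr, the receptor gene of leukaemia inhibitory factor, an H3K36me2 window on chromosome 15 from 7076818 to 7077218 had 4.49 mutant and 10.6 WT reads. At 8391 bp from it, H3K27me3 had 17.5 mutant and 5.56 WT reads (FDR 0.00749 in the authors' deposited table). Near Prss35, a serine protease family gene, H3K36me2 had 5.33 mutant and 12.5 WT reads, and H3K27me3 at 8517 bp had 9.65 mutant and 2.30 WT reads. In both places H3K36me2 was lower and H3K27me3 at the neighbouring window higher in the mutant.

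The opposite arrangement was found in several genes with higher windows. At Il18rap, an interleukin 18 receptor subunit gene, H3K36me2 had 6.24 mutant and 1.80 WT reads, and H3K27me3 at 7449 bp had 8.13 mutant and 26.4 WT reads (FDR 5.30e-04 in the authors' deposited table). At Wscd1, H3K36me2 had 10.8 mutant and 3.44 WT reads, and H3K27me3 at 20923 bp had 18.1 mutant and 69.8 WT reads. At Lipe, the hormone-sensitive lipase gene, H3K36me2 had 11.2 mutant and 3.44 WT reads, and H3K27me3 at 19785 bp had 19.7 mutant and 49.9 WT reads. At 16666 bp from Trio, a guanine nucleotide exchange factor gene, the direction differed: H3K36me2 had 10.6 mutant and 3.85 WT reads, and H3K27me3 at 12804 bp had 27.5 mutant and 13.8 WT reads, so both marks were higher in the mutant. At Kcnip3, a potassium channel-interacting protein gene, H3K36me2 had 4.04 mutant and 14.9 WT reads while H3K27me3 at 14332 bp had 31.8 mutant and 63.5 WT reads, so both marks were lower.

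**Figure D4:**
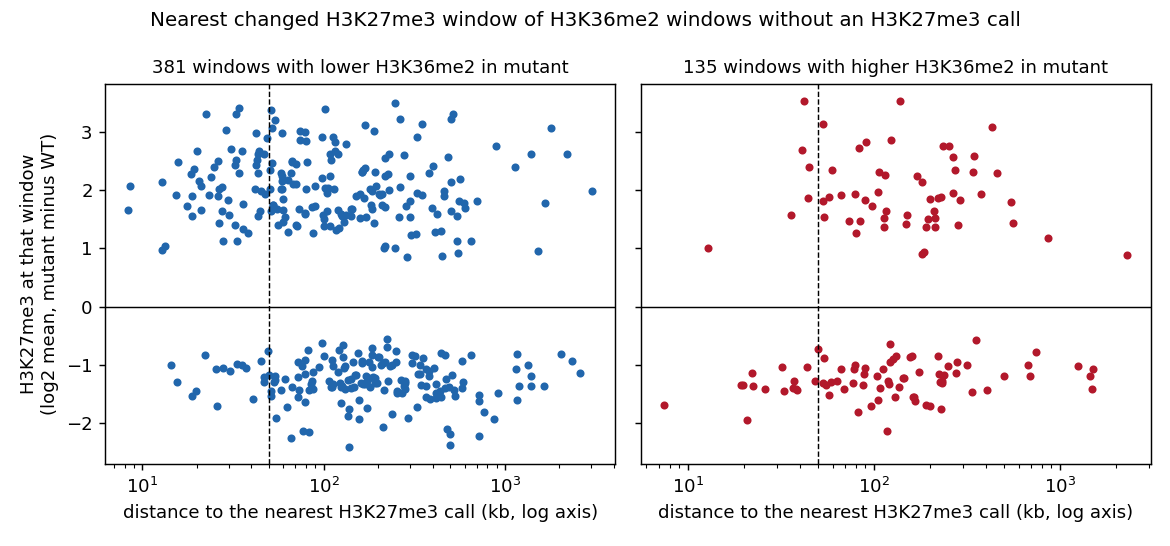
H3K27me3 difference (log2 mean, mutant minus WT) at the nearest window called for H3K27me3 against its distance in kb on a log axis, for the 381 lower (left) and 135 higher (right) H3K36me2 windows; each point is an H3K36me2 window and the dashed line marks 50 kb. Left of that line, 55 of 72 points lie above 0 for lower windows and 6 of 21 for higher windows.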

How the data were processed

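CUT&RUN reads of 37 bp (paired-end, per the labels' protocols) were processed by the authors with Bowtie2, SICER, DESeq2 and DiffBind, and the build is GRCm38 (mm10), per the submitters' processing notes. Versions, duplicate handling, spike-in, blacklist and how libraries were merged are not stated there. The authors deposited DiffBind genotype means as log2 normalised reads, a shrunken log2 fold, and p-values and FDRs, per the file headers. The authors deposited SICER2 island read counts per genotype, RPM (counts scaled to the pool size), fold ratios and p-values, per the file headers. Count divided by RPM gave pools of 59539924 mutant and 47361190 WT reads. The depth of single libraries is unknown, since no column per library was used.

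Members, gene lists and tests were chosen with earlier results of these data known. Windows were matched by identical coordinates, and 0 windows were listed off chromosomes 1 to 19. Gene positions were those of RefSeq on GRCm38.p6 (21887 protein-coding genes on the autosomes, X and Y). Overlap needed 1 bp. The table gives no strand or exons, so gene ends are either end, and introns and exons were not told apart. Named windows were those above the floor with the 10 largest differences and the 5 smallest p per direction, genes with most windows, up to 4 windows per list, and windows in an island of the other direction. Python 3.11.15, numpy 2.4.6, pandas 2.3.3 and scipy 1.17.1 were used, and scripts were tested on simulated data. Intervals are exact (Clopper-Pearson) at 95%. PCR copies are not independent molecules, so intervals cover counting error only. Alternatives changed the nominal p, the floor, gene sets, distances, clustering and island calls.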

Additional observations from a re-analysis of the deposited data

How the results depend on the processing

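Over 60 alternative settings of 12 results, 48 kept the direction and the side of the threshold or stayed within 1.5 times the count. At a nominal p under 0.01, 74 lower and 9 higher windows without an H3K27me3 call were left, and the gene body odds ratio of windows without against with an H3K27me3 call was 0.77 and so reversed, against 1.29 at p under 0.05 (adjusted p = 0.533). There the odds ratio of lower against higher windows at gene ends was 0.18, no longer called (adjusted p = 0.0720). Gene ends within 1 kb gave odds ratios of 0.59 (without against with a call) and 0.55 (lower against higher), neither called, and all RefSeq genes gave 0.73 for lower against higher, not called. Within lower windows alone, a comparison chosen after seeing the data, the odds ratio at gene ends was 0.64, not called. The causes were not tested, though fewer windows entered the tests at p under 0.01 and within lower windows. With an exact binomial test of island reads, 6 in place of 11 higher windows lay in islands called higher. With calls taken relative to the median fold of all islands, 157 lower windows lay in islands called lower. With that binomial test and that median together, chosen after seeing the data, 87 in place of 165 lower windows lay in islands called lower and 0 in place of 1 higher window in an island called lower. That count was also 0 with whole windows inside islands. No paired analysis was possible because the tables hold genotype means and pools with no column per library and no animal belongs to both genotypes. For the same reason no animal could be left out. Low read numbers limit the windows: at a median of 4.04 mutant reads in lower windows and 2.99 WT reads in higher windows, sizes of single differences are uncertain.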
